A study of Homo sapiens with 6 samples.

Results

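The 10 genes described here, IFI44L, IFI44, RSAD2, CMPK2, BST2, IFI6, IFI27, IFI35, MX1 and MX2, are interferon-induced genes that were chosen by their measured log2 fold changes between GLCC1 siRNA and control siRNA in these libraries, together with close relatives of the genes with large changes. All 10 were among the 56638 gene symbols of the count files, and all 10 were among the 23074 symbols that remained after genes with very few counts were removed. Because that comparison chose them, their differences between the groups are given as a description and without a test.

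RNA was sequenced from a human colorectal cancer cell line in 6 libraries, of which 3 were titled control siRNA, a nonspecific siRNA, and 3 were titled siRNA against the long noncoding RNA AF339830, called GLCC1 in the study. The comparison asks how gene expression differs when GLCC1 is targeted, and both groups were transfected with an siRNA, so untransfected cells stand in neither. The labels name the line SW480, whereas the study's methods name DLD-1 for this experiment. Every genotype label, those of the controls included, ends in siRNA1, although the titles number the libraries 1 to 3. The names under which the libraries were sequenced carry NC for those titled GLCC1 siRNA and AF for those titled control. If these letters stood for negative control and for AF339830, every direction below would be reversed. GLCC1 itself was not measured under a symbol of its own, and the direction of the knockdown was therefore not checked here. Its locus lies in FARP1, whose level was 110.5 ± 2.13 CPM (counts scaled to the same library total, SD, n = 3) in the control libraries and 64.8 ± 1.33 CPM in the GLCC1 siRNA libraries. The log2 fold change of FARP1 was -0.77 (SE 0.08, adjusted p = 9.2e-06, edgeR's quasi-likelihood test with Benjamini-Hochberg adjustment), and FARP1 is a protein-coding gene that does not stand for GLCC1. Nothing in the labels says that the 3 libraries of a group came from separate cultures, so p-values measure only the spread between these libraries.

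Between 11948790 and 19042516 counts fell on genes in a library. GLCC1 siRNA replicate 2 was the shallowest library and stood apart from the rest of its group. Compared gene by gene with replicates 1 and 3, it gave a chi-square per degree of freedom of 16.3 and 17.1, against 3.07 between those replicates and at most 3.84 between control libraries. Its share of reads on no gene was 14.2%, against at most 12.7% in the other libraries. Of the 23074 genes tested, 3429 (14.9%) were called higher and 3864 (16.7%) lower at an adjusted p under 0.05. Scaling by library totals alone moved the split to 4735 higher and 2797 lower, and it moved the median log2 fold change of all genes from 0.03 to 0.15. In bulk RNA, fewer cells of a kind and less RNA per cell cannot be told apart.

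Type I and type III interferons bind receptors on the cell surface, which activate the kinases JAK1 and TYK2. These phosphorylate transcription factors such as STAT2, which join IRF9 and bind the interferon-stimulated response element, a short DNA motif in the promoters of many antiviral genes. Interferon gamma acts through a separate receptor and leads to the binding of another motif, the gamma-activated site. Epithelial cells, those of the colon included, respond to both type I and type III interferons, and the genes described here are widely used as readouts of that response.

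The promoters of the members are shown as a description. The rule that chose the genes did not read their promoters, but it took interferon-induced genes, many of which carry this response element. A high share of matches among them is therefore not independent of the choice. Promoter windows of 250 bases before to 50 bases after each start were taken from RefSeq (GRCh38.p14), in which 9 of the 10 genes, all but MX2, had an entry, with 16 windows between them. They were searched on both strands for the letters GAAANNGAAA, a form of the interferon-stimulated response element that reads TTTCNNTTTC on the opposite strand. A match was present in the windows of 7 of the 9 genes (77.8%), IFI44L, IFI44, RSAD2, BST2, IFI6, IFI27 and MX1. Over all genes with a window it was present in 1195 of 27305 (4.38%), and among the other interferon-induced antiviral genes described below in 24 of 38 (63.2%). Counted by window, the share was 62.5% of 16 for the members and 3.57% of 35116 for all genes. Each sequence below runs 5′ to 3′ on the strand of its gene from 20 bases before the first match to 20 bases after the last one, or to the end of the window, with the matches in capitals. The stretches are chr1:78620264-78620404 for IFI44L, chr1:78649751-78649800 for IFI44, chr2:6877612-6877661 for RSAD2, chr14:94110608-94110670 for IFI27 and chr21:41420549-41420598 for MX1, all on the plus strand. Those of BST2, at chr19:17405725-17405780, and IFI6, at chr1:27672256-27672368, lie on the minus strand.
IFI44L: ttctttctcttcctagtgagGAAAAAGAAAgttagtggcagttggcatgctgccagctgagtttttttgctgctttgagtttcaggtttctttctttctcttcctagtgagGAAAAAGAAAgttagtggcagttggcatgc
IFI44: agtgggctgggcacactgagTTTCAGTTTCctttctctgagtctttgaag
RSAD2: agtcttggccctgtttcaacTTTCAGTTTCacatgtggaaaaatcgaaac
BST2: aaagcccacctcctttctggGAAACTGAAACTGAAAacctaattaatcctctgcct
IFI6: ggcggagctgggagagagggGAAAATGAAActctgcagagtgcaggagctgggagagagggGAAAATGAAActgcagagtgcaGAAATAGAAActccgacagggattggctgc
IFI27: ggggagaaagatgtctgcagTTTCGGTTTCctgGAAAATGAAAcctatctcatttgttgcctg
MX1: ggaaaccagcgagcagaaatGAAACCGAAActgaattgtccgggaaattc

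The matches differed in number and layout. IFI44L held 2 matches whose first bases lay 91 bases apart, IFI6 held 3 with spacings of 41 and 22 bases, and IFI27 held 2 on opposite strands, 13 bases apart. In BST2, 2 matches overlapped, with first bases 6 bases apart. MX1 had a further window with a match, at chr21:41431834-41431883. The letters were not found in the 3 windows of CMPK2 or in the window of IFI35. The letters TTCNNNGAA, which read the same on both strands and are a form of the gamma-activated site, were found in windows of 4 of the 9 genes, BST2, IFI27, IFI35 and MX1. They were found for 9.38% of all genes with a window and for 8 of the 38 other interferon-induced antiviral genes (21.1%). In IFI27 and MX1 they shared bases with a match of GAAANNGAAA, and so did the stretch of BST2 that lay farther from the start. A match is a run of letters, and binding was not measured.

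On the hg19 build used for the counts, 3 pairs of members lie side by side. IFI44L and IFI44 are on the plus strand of chromosome 1, at 79085587 to 79111830 and 79115481 to 79129763, with 3650 bases between them. CMPK2 (chromosome 2, 6980701 to 7006766, minus strand) and RSAD2 (7005688 to 7038370, plus strand) overlap by 1079 bases. An exon of RSAD2 covers 11.3% of the exonic bases of CMPK2's canonical transcript. Union mode gives reads in such an overlap to no gene if strand is ignored, and whether strand was used in the counting was not given. MX2 (42733926 to 42781320) and MX1 (42791947 to 42841998) are on the plus strand of chromosome 21, 10626 bases apart. The others lie alone, BST2 on chromosome 19 (17513748 to 17516439, minus strand), IFI6 on chromosome 1 (27992575 to 27998723, minus strand), IFI27 on chromosome 14 (94571182 to 94583032, plus strand) and IFI35 on chromosome 17 (41158757 to 41166473, plus strand).

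IFI44L and IFI44 encode related interferon-induced proteins with antiviral activity. IFI44L had 0, 6 and 6 counts in control replicates 1, 2 and 3 and 731, 264 and 315 counts in GLCC1 siRNA replicates 1, 2 and 3. It was therefore barely detected in the control libraries and present in each GLCC1 siRNA library, the first of which held the most. In CPM scaled with TMM factors (trimmed mean of M-values, which balance the libraries on the bulk of genes), the means were 0.231 ± 0.200 and 25.6 ± 10.99 (SD, n = 3 each), and the fitted log2 fold change was 6.68 (SE 0.45). Since the control libraries held 12 counts in all, the fold is poorly bounded: the ratio of summed counts, scaled by library size, was 108.5 with a 95% counting interval of 61.9 to 210.6. IFI44 was found at 2.81, 4.13 and 2.23 CPM in the control libraries and at 73.8, 57.7 and 46.0 CPM in the GLCC1 siRNA libraries. The groups did not overlap, and the lowest GLCC1 siRNA library stood 11.1-fold above the highest control library. The log2 fold change of IFI44 was 4.26 (SE 0.21).

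RSAD2 encodes viperin, a radical S-adenosylmethionine enzyme that makes a chain-terminating nucleotide from CTP, and its neighbour CMPK2 encodes a mitochondrial nucleotide kinase. RSAD2 stood at 3.15, 3.97 and 1.75 CPM in the control libraries and at 63.8, 28.3 and 31.7 CPM in the GLCC1 siRNA libraries. Replicate 1 thus held more than the other GLCC1 siRNA libraries, which lay close together, and the log2 fold change was 3.80 (SE 0.33). CMPK2 gave 8.85, 10.7 and 9.15 CPM against 71.2, 37.5 and 41.4 CPM, the same order of libraries within the GLCC1 siRNA group as for RSAD2. Its log2 fold change was smaller, at 2.39 (SE 0.21), from a control level that was higher in CPM.

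BST2 encodes tetherin, a membrane protein that holds budding virus particles at the cell surface. Its level was 2.13, 2.92 and 2.71 CPM in the control libraries and 43.6, 25.8 and 30.6 CPM in the GLCC1 siRNA libraries. The groups were separated by 8.82-fold between the highest control and the lowest GLCC1 siRNA library, and the log2 fold change was 3.68 (SE 0.21).

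IFI6 and IFI27 encode small hydrophobic proteins of one interferon-alpha-inducible family, and IFI6 is known to restrain cell death and the replication of flaviviruses. These genes were the most abundant members. IFI6 was counted at 129.9, 165.4 and 121.6 CPM in the control libraries and at 529, 379 and 445 CPM under GLCC1 siRNA, and its log2 fold change was 1.70 (SE 0.13). IFI27 was counted at 175.5, 205.7 and 181.0 CPM against 376, 287 and 326 CPM. Its log2 fold change, 0.81 (SE 0.10), was the smallest of the 10, and its lowest GLCC1 siRNA library was 1.39-fold above its highest control library.

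IFI35 encodes a leucine zipper protein that forms a complex with NMI. It was at 17.5, 20.9 and 17.5 CPM in the control libraries and at 66.5, 39.8 and 50.3 CPM under GLCC1 siRNA, and its log2 fold change was 1.49 (SE 0.16). The groups did not overlap. NMI, which was not a member, rose from 3.97 ± 0.573 to 16.2 ± 4.34 CPM (SD, n = 3), with a log2 fold change of 2.02 (SE 0.20, adjusted p = 6.1e-06, edgeR's quasi-likelihood test with Benjamini-Hochberg adjustment). NMI was picked as the known partner of IFI35, after its values were seen.

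MX1 and MX2 encode dynamin-like GTPases, of which MX1 blocks influenza virus among others and MX2 blocks the nuclear entry of HIV-1. MX1 stood at 6.10, 7.11 and 6.50 CPM in the control libraries and at 17.5, 17.1 and 14.6 CPM in the GLCC1 siRNA libraries. Among the members it varied least across the GLCC1 siRNA libraries, with a highest value 1.20-fold above the lowest, and its log2 fold change was 1.31 (SE 0.13). MX2 stood at 2.67, 3.31 and 1.99 CPM against 36.1, 15.0 and 19.3 CPM. It varied most, with a highest value 2.40-fold above the lowest in the GLCC1 siRNA group, and its log2 fold change was 3.15 (SE 0.31).

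**Figure D1:**
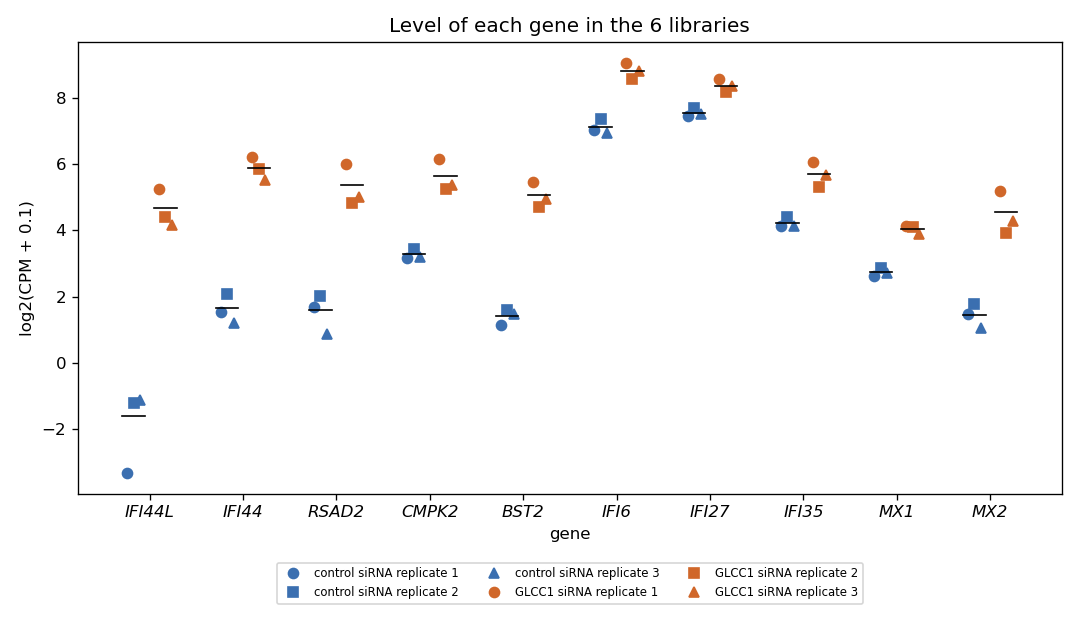
Level of each of the 10 genes, as log2 of CPM plus 0.1, in the 3 control siRNA libraries (blue) and the 3 GLCC1 siRNA libraries (orange), with the marker shape giving the replicate and a short line the level of the group mean. The groups do not overlap for any gene, and GLCC1 siRNA replicate 1 (orange circle) is the highest library for all 10.

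For all 10 members, every GLCC1 siRNA library lay above every control library, which held for 22.3% of all genes tested. Since the members were chosen for this difference, nothing follows from that count. The folds of the mean CPM spread widely, from 1.76 for IFI27 to 110.9 for IFI44L, with 5 genes over 8-fold (IFI44L, IFI44, RSAD2, BST2 and MX2) and 4 under 4-fold (IFI6, IFI27, IFI35 and MX1). Among the 14875 genes that averaged 1 CPM or more, IFI44L ranked 1st, IFI44 rank 4, RSAD2 rank 7, BST2 rank 8, MX2 rank 15 and CMPK2 rank 39 by log2 fold change. IFI6, IFI35, MX1 and IFI27 ranked 122, 194, 282 and 977. The name of strongest interferon-induced genes thus fits some of the members and not others. These ranks use the same fold changes that chose the genes, so high ranks among them were built in and are given as a description. IFI44L, with a control mean of 0.231 CPM, reached the limit of 1 CPM only through the GLCC1 siRNA libraries. In a list of 48 other interferon-induced antiviral genes, none exceeded IFI44L in log2 fold change, 1 exceeded IFI44 (XAF1) and 2 exceeded RSAD2 and BST2 (XAF1 and IFI16), whereas 21 exceeded IFI6, 24 IFI35, 27 MX1 and 36 IFI27. XAF1 and IFI16 are named here after their values were seen, and their log2 fold changes were 4.90 and 4.05. The median log2 fold change was 2.77 over the members and 0.03 over all genes tested. Without GLCC1 siRNA replicate 2 the median over the members was 2.97, and leaving out GLCC1 siRNA replicate 1 gave 2.37.

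**Figure D2:**
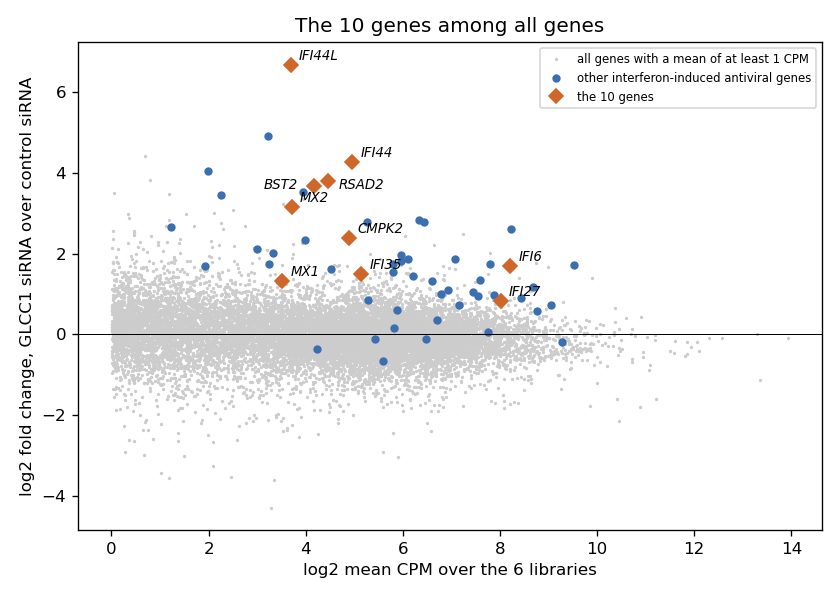
Log2 fold change of GLCC1 siRNA over control siRNA (vertical axis) against log2 of the mean CPM over the 6 libraries (horizontal axis) for genes that averaged 1 CPM or more (grey), the other interferon-induced antiviral genes (blue) and the 10 members (orange diamonds). IFI44L, at 6.68, stands highest of all points, whereas IFI27, at 0.81, lies among many of the blue and grey points.

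To compare levels between genes, CPM were divided by the length of the canonical transcript in kilobases. In the control libraries IFI27 was highest at 262 ± 22.5 CPM per kb, followed by IFI6 at 171 ± 28.6 and IFI35 at 15.8 ± 1.68. CMPK2 (3.10), BST2 (2.58), MX1 (2.37) and IFI44 (1.82) followed, each of which overlapped the next in that order across the libraries. RSAD2 (0.868) and MX2 (0.779) also overlapped, and IFI44L was last at 0.0396 CPM per kb. In the GLCC1 siRNA libraries the order began with IFI6 at 555 ± 92.7 and IFI27 at 460 ± 62.3 CPM per kb, whose ranges overlapped. IFI35 (44.2), IFI44 (35.2) and BST2 (33.3) formed the next overlapping run, and CMPK2 (16.2), RSAD2 (12.1), MX2 (6.89), MX1 (5.90) and IFI44L (4.39) the last one, in which each gene overlapped the next. The range from the highest to the lowest member was therefore narrower in the GLCC1 siRNA libraries than in the control libraries. The order depends on the length used: over all annotated exons joined, the GLCC1 siRNA mean was 79.7 CPM per kb for IFI27, 2.20 for IFI44L, 1.61 for MX2 and 0.911 for MX1, so that MX1 and not IFI44L was last.

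**Figure D3:**
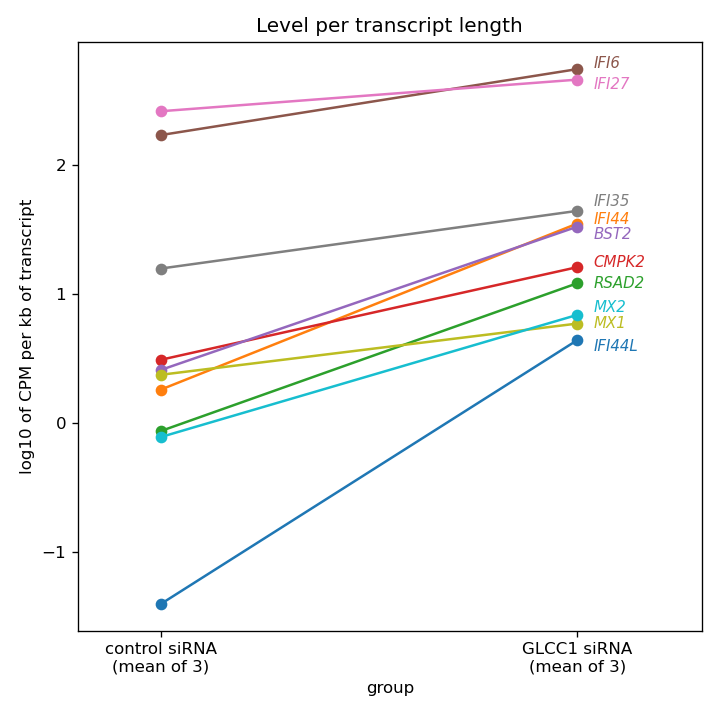
Mean level per transcript length, as log10 of CPM per kb of canonical transcript, in the 3 control siRNA libraries (left) and the 3 GLCC1 siRNA libraries (right), with 1 line per gene. The steepest line is IFI44L, from 0.0396 to 4.39 CPM per kb, and the lines of IFI6 and IFI27 cross.

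The ratios within pairs differed between the groups. The ratio of IFI6 to IFI27 per length was 0.652, 0.709 and 0.593 in the control libraries and 1.24, 1.17 and 1.20 in the GLCC1 siRNA libraries. That IFI27 led in the control libraries depends on the length used, since with the length of all annotated exons joined IFI6 was above IFI27 in every library, by 2.97 to 3.55-fold in the control and 5.84 to 6.22-fold in the GLCC1 siRNA libraries. With either length the ratio was higher in each GLCC1 siRNA library than in any control library. The ratio of MX2 to MX1 per length was 0.357, 0.379 and 0.249 in the control libraries and 1.68, 0.716 and 1.08 in the GLCC1 siRNA libraries. CMPK2 exceeded RSAD2 by 3.09, 2.98 and 5.77-fold in the control libraries and by 1.23, 1.46 and 1.44-fold in the GLCC1 siRNA libraries, and whether reads of their shared exonic stretch were counted is not known. IFI44L remained below IFI44 in all 6 libraries, at 0, 0.0231 and 0.0468 of its level per length in the control libraries and 0.149, 0.105 and 0.110 in the GLCC1 siRNA libraries.

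Most of the RNA of the 10 genes came from IFI6 and IFI27. The summed level of all 10 was 349, 425 and 345 CPM in the control libraries and 1315, 907 and 1023 CPM in the GLCC1 siRNA libraries. IFI6 and IFI27 made up 87.4 to 87.8% of that sum in the control libraries and 68.8, 73.3 and 75.4% in GLCC1 siRNA replicates 1, 2 and 3. Of the mean gain of 709 CPM, these same genes contributed 454 CPM (64.0%), although their folds were among the smallest.

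The members varied together from library to library within a group. GLCC1 siRNA replicate 1 was the highest library of its group for 10 of 10 members, for 46 of the 48 other antiviral genes (95.8%) and for 27.6% of the 14875 genes that averaged 1 CPM or more. Control replicate 2 was the highest of its group for 9 of 10 members, for 37 of the 48 (77.1%) and for 39.4% of all such genes. The median log2 level of the members relative to the control mean was 3.30, 2.21 and 2.46 in GLCC1 siRNA replicates 1, 2 and 3 and -0.10, 0.21 and -0.08 in the control libraries. Both of these libraries were also the deepest of their group, with 18390975 and 19042516 counts on genes, and the part of depth in this order was not tested.

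The rest of the pathway was described from gene lists, and each p below is from edgeR's quasi-likelihood test with Benjamini-Hochberg adjustment over all genes tested. Of the 48 other interferon-induced antiviral genes, 41 rose, 1 fell and 6 did not pass the test, and their median log2 fold change was 1.50 against 0.03 for all genes. The shares called over all genes tested were 14.9% higher and 16.7% lower. This list, like the others, was chosen with earlier results of these data known, so its counts are not independent of them. The largest rises among those with a mean level of 10 CPM or more were OAS2, which makes the 2′-5′ oligoadenylates that activate RNase L (2.44 ± 0.662 to 28.4 ± 13.8 CPM, log2 fold change 3.53, SE 0.32, adjusted p = 3.0e-06), and IFIT3 and IFIT2, which bind or help to bind foreign RNA. IFIT3 rose from 19.8 ± 4.14 to 141.9 ± 42.8 CPM (log2 fold change 2.84, SE 0.20, adjusted p = 3.2e-07) and IFIT2 from 21.9 ± 3.19 to 151.9 ± 37.9 CPM (2.79, SE 0.16, adjusted p = 8.7e-08). TDRD7, a tudor domain protein that limits virus-induced autophagy, fell from 58.9 ± 3.90 to 37.1 ± 3.75 CPM (log2 fold change -0.67, SE 0.10, adjusted p = 2.2e-04). Without GLCC1 siRNA replicate 1 or without replicate 2, the number of antiviral genes called lower was 2 in place of 1, and the number called higher stayed between 39 and 42 when any library was left out.

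Interferon genes themselves were counted at a few reads or none. IFNE, a type I interferon of epithelia, had 4, 3 and 3 counts in the control libraries and 25, 11 and 22 in the GLCC1 siRNA libraries and rose by a log2 fold change of 2.47 (SE 0.43, adjusted p = 5.6e-04). IFNL1, a type III interferon, had 3, 0 and 1 counts against 21, 1 and 8, with a log2 fold change of 2.71 (SE 0.94, adjusted p = 0.041). The call for IFNL1 rested on single libraries and on the tool, since the adjusted p was 0.053 in DESeq2 with all 6 libraries and, in edgeR, 0.28 without GLCC1 siRNA replicate 1, 0.053 without GLCC1 siRNA replicate 3, 0.15 without control replicate 2 and 0.13 without control replicate 3. IFNB1, the first type I interferon made by most infected cells, had 1, 0 and 0 counts against 2, 2 and 2 (adjusted p = 0.21). IFNL2 (1, 0 and 0 against 1, 2 and 5) and IFNL3 (2, 1 and 0 against 9, 0 and 0) did not pass the test either, at adjusted p of 0.15 and 0.47. Of the 9 ligand genes listed, IFNA1, IFNA2, IFNK and IFNG had too few counts to be tested, and IFNA2 and IFNG were at 0 in all 6 libraries, which at this depth does not show that they were absent.

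None of the 9 receptor and kinase genes rose and 2 fell. IL10RB, the shared chain of the type III interferon receptor, fell from 22.3 ± 0.248 to 12.5 ± 1.29 CPM (log2 fold change -0.84, SE 0.11, adjusted p = 7.8e-05), and IFNLR1, its specific chain, fell from 35.5 ± 3.89 to 25.9 ± 1.56 CPM (-0.45, SE 0.11, adjusted p = 0.0055). The remaining log2 fold changes were 0.08 for IFNAR1, 0.12 for IFNAR2, 0.16 for IFNGR1, 0.03 for IFNGR2, 0.29 for JAK2, 0.001 for JAK1 and -0.03 for TYK2, with adjusted p between 0.094 and 0.99. With library totals as the scaling TYK2 turned to 0.09, and JAK2 (0.41, adjusted p = 0.021) and IFNGR1 (0.28, adjusted p = 0.020) were called. IFNGR1 was also called without GLCC1 siRNA replicate 2 (0.15, adjusted p = 0.033).

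Of 5 transcription factors described here, 3 rose. STAT2 rose from 83.5 ± 5.04 to 115.3 ± 19.8 CPM, a log2 fold change of 0.47 (SE 0.11, adjusted p = 0.0062). IRF7, the amplifier of interferon production, rose by 0.64 (SE 0.13, adjusted p = 0.0023) and IRF1 by 0.50 (SE 0.15, adjusted p = 0.023). For IRF1, leaving out any library other than GLCC1 siRNA replicate 2 took the adjusted p to between 0.058 and 0.12. IRF9, the DNA-binding partner of STAT2, stood at 0.31 (SE 0.14, adjusted p = 0.10) and was called without GLCC1 siRNA replicate 2 (adjusted p = 0.0057), without control replicate 2 (adjusted p = 0.023) and with library totals (adjusted p = 0.023). IRF3 stood at 0.02 (adjusted p = 0.92). Among 4 feedback inhibitors, USP18, which detaches ISG15 and blocks signalling at IFNAR2, rose from 25.7 ± 1.83 to 85.7 ± 17.1 CPM (log2 fold change 1.74, SE 0.13, adjusted p = 6.4e-07), and it is also in the list of antiviral genes. SOCS1 (0.20, adjusted p = 0.75), SOCS3 (-0.16, adjusted p = 0.57) and PIAS1 (-0.14, adjusted p = 0.23) did not pass the test.

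**Figure D4:**
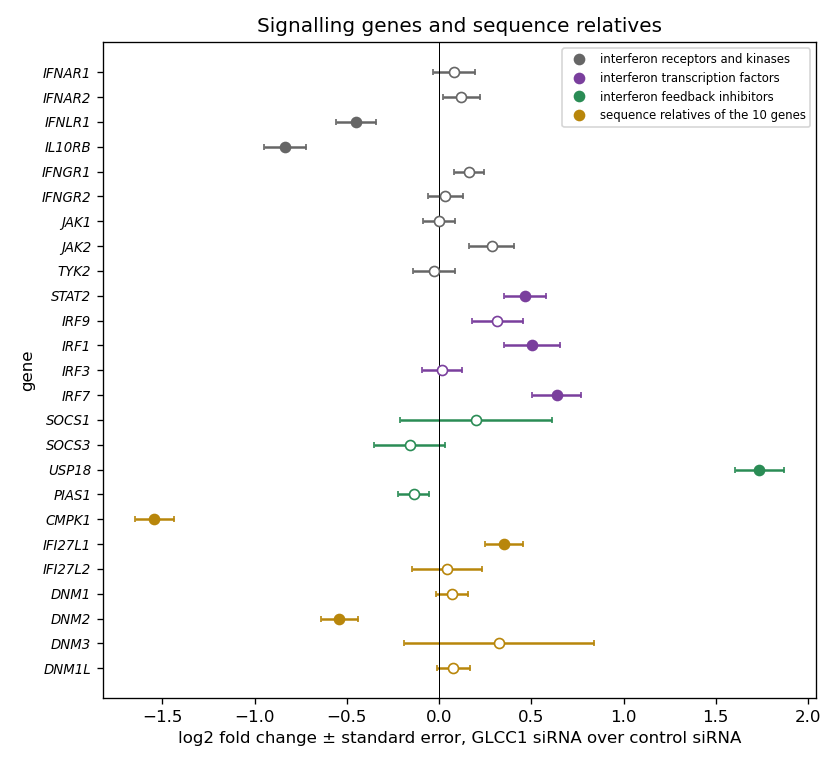
Log2 fold change of GLCC1 siRNA over control siRNA with its standard error for the interferon receptors, kinases, transcription factors and feedback inhibitors described here. Relatives of the members by name or family, which the legend calls sequence relatives, are also shown. Filled circles mark an adjusted p under 0.05. USP18 stands at 1.74, whereas CMPK1 stands at -1.54.

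A list of 14 genes induced mainly by interferon gamma had 11 that were tested, of which 7 rose, 1 fell and 3 did not pass the test. Of all genes tested, 14.9% were called higher and 16.7% lower. The 7 that rose were CXCL9, CXCL10, CXCL11, GBP1, GBP2, GBP4 and CD74, named here after their values were seen. All 7 had a mean under 10 CPM, and their log2 fold changes ran from 1.54 for GBP2 to 4.38 for CXCL9. The gene that fell was WARS, a tryptophanyl-tRNA synthetase, at a log2 fold change of -0.49 (SE 0.09, adjusted p = 6.6e-04). Of 13 NF-kB response genes, 11 were tested, of which 1 rose (CXCL2) and 3 fell (RELB, BIRC3 and NFKB2). BIRC3, an inhibitor of apoptosis, and NFKB2, an NF-kB subunit, were those that fell with a mean level of 10 CPM or more, by log2 fold changes of -0.64 (SE 0.15, adjusted p = 0.0054) and -0.56 (SE 0.09, adjusted p = 3.7e-04).

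Of 7 relatives of the members by name or family, 1 rose, 2 fell and 4 did not pass the test. Their sequences were not compared with those of the members. CMPK1, the cytosolic counterpart of CMPK2, fell from 167.1 ± 4.44 to 57.5 ± 8.51 CPM (log2 fold change -1.54, SE 0.10, adjusted p = 2.4e-07), and its lowest control library, at 163 CPM, was above its highest GLCC1 siRNA library, at 67.3 CPM. DNM2, a dynamin of the family to which MX1 and MX2 are related, fell by a log2 fold change of -0.54 (SE 0.10, adjusted p = 9.1e-04). IFI27L1, a paralog of IFI27 that lies beside it, rose by 0.35 (SE 0.10, adjusted p = 0.017), and this call was lost without control replicate 1 (adjusted p = 0.096), control replicate 3 (0.067) or GLCC1 siRNA replicate 3 (0.055). IFI27L2 (0.04), DNM1 (0.07), DNM3 (0.32) and DNM1L (0.08) did not pass the test, with adjusted p between 0.56 and 0.89. None of the 7 relatives held the letters GAAANNGAAA in its promoter window.

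The nearest tested genes on each side of the members numbered 14, of which 4 rose, 4 fell and 6 did not pass the test, with a median log2 fold change of -0.01. Over all genes tested, 14.9% were called higher and 16.7% lower. Near IFI35, VAT1, whose gene lies 150 bases away, rose by 0.26 (adjusted p = 0.044) and RPL27, 3780 bases away, fell by a log2 fold change of -0.56 (SE 0.11, adjusted p = 0.0019). MVB12A, 91 bases from BST2, stood at -0.06 (adjusted p = 0.79), and at 0.06 with library totals as the scaling, and PLVAP, on the other side of BST2, had 0 counts in all control libraries and 2, 5 and 2 in the GLCC1 siRNA libraries (adjusted p = 0.044). TMPRSS2, a serine protease gene that overlaps MX1 on the opposite strand, fell from 2.27 ± 0.638 to 0.687 ± 0.139 CPM (log2 fold change -1.69, SE 0.31, adjusted p = 8.7e-04). No exon of another gene in the counts covers the canonical transcript of MX1. The strand setting of the counting was not given, so reads in any overlap of other MX1 exons with TMPRSS2 cannot be assigned with certainty. RPS7 (-0.42, adjusted p = 0.0022), the nearest tested gene below CMPK2 although 3352 kb away, and FAM76A beside IFI6 (-0.43, adjusted p = 0.0095) also fell, the latter with an adjusted p of 0.058 without control replicate 1 and 0.053 with library totals as the scaling. RNF144A, 19.2 kb from RSAD2, rose by 0.27 (adjusted p = 0.042). The calls of RNF144A, VAT1 and PLVAP were lost when any control library was left out, and those of RNF144A and VAT1 also without GLCC1 siRNA replicate 1 or replicate 3. GIPC2 (adjusted p = 0.17), FGR (0.87), IFI27L2 (0.89) and FAM3B (0.91) did not pass the test, nor did LPHN2, which had 5 counts in GLCC1 siRNA replicate 3 and 0 in the other libraries (adjusted p = 0.19). GIPC2 was called without GLCC1 siRNA replicate 2 (adjusted p = 0.042), on at most 5 counts in a library. GIPC2 and LPHN2, the nearest tested genes to IFI44L outside the members, lie 481.5 and 2660 kb from it.

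The 5 genes with the profile nearest to the median of the 10 members were sought among 14865 other genes, by the root mean square distance of log2 of CPM plus 0.1, relative to the control mean, over the 6 libraries. They were CXCL10 (distance 0.115), IFIT2 (0.209), IFIT3 (0.233), IFIT1 (0.255) and LGALS9 (0.288), and the median distance of all genes compared was 1.95. Such a distance follows the rise that chose the members, so the contrast with 1.95 was built in. The median profile, CXCL10 and LGALS9 were lowest in GLCC1 siRNA replicate 2 of that group, whereas IFIT1, IFIT2 and IFIT3 were lowest in replicate 3. CXCL10, a chemokine, stood at 0.282 CPM in the control libraries and 2.24 CPM in the GLCC1 siRNA libraries on the mean, and LGALS9, a galectin, at 0.880 and 5.60 CPM. The values of CXCL10 rest on 4, 6 and 4 counts in the control libraries and 64, 18 and 35 in the GLCC1 siRNA libraries.

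Markers of the cells were also examined. Of 9 markers of colon epithelium, 1 rose (CDH17) and 5 fell (EPCAM, CDH1, KRT8, KRT18 and KRT19), genes named here after their values were seen. All 9 had counts, and their summed level was 5645 to 6162 CPM in the control libraries and 2399 to 2770 CPM in the GLCC1 siRNA libraries. The keratins KRT8, KRT18 and KRT19 fell by log2 fold changes of -1.61, -1.82 and -1.34, with adjusted p of 9.5e-08, 2.2e-08 and 5.3e-07, and the part of this difference in the members' values was not tested. Of 9 immune cell markers 4 were tested and none was called, and PTPRC, LILRA4 and CLEC4C were at 0 counts in every library. The summed level of the immune markers was 3.50 to 4.94 CPM in the control libraries and 3.74 to 6.52 CPM in the GLCC1 siRNA libraries. Of 6 fibroblast and endothelial markers 2 were tested and 1 fell, COL1A1, with COL1A2, DCN and PECAM1 at 0 in every library and a summed level of 12.4 to 15.8 and 6.999 to 9.34 CPM.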

How the data were processed

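The authors deposited raw counts per gene symbol for each of 6 libraries, made from total RNA with a TruSeq kit. Per the labels and the study's methods, reads were mapped to hg19 with TopHat2 2.0.11, counted with HTSeq in union mode and compared with DESeq2, and a strand setting was not given in the sources used here. The tallies that HTSeq appends were left out of library sizes, and the reads on no gene made up 11.2 to 14.2% of a library.

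Libraries were grouped by title. A gene was kept where the 3 libraries of at least 1 group together held 5 counts or more. Counts were scaled with TMM factors of 0.950 to 1.05 and fitted in edgeR 4.0.16 (R 4.3.3) with the robust quasi-likelihood test and Benjamini-Hochberg adjustment over all 23074 genes. With 3 libraries against 3, an exact permutation test of 1 gene cannot fall below 0.1. The procedure was also run on simulated data, whose outcome is not reported here. In them the libraries of a group shared the same expected levels, so a deviating library such as GLCC1 siRNA replicate 2 was not covered. No pair of libraries was a copy, with a chi-square per degree of freedom of at least 1.84. Replicate numbers were not used to pair the libraries in the main fit. Intervals cover counting error only.

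The members and gene lists were chosen with earlier results of these data known. A further gene that belongs in these lists is not reported here, so the lists are not complete. Named were the 10 members, all other tested ligands, receptors, kinases, factors, inhibitors, relatives and neighbours, FARP1, the 3 largest rises and falls with a mean of at least 10 CPM in each other list, and the 5 genes nearest in profile. In the lists of markers of colon epithelial, immune, and fibroblast and endothelial cells, genes were counted by call. Gene positions and lengths came from GENCODE 44 on hg19. Its symbols matched 16491 of the 23074 genes tested, and a further 1182 of its entries were matched by an older symbol. Together these covered 76.5% of the genes tested, and neighbours were sought among them. Promoters came from RefSeq on GRCh38.p14. Alternatives were DESeq2 1.42.0, its size factors, library totals, filters of 1 count in any library and 10 counts in every library, an adjusted p under 0.001, a replicate block and each library left out. Python 3.11.15 was used with numpy 2.4.6, pandas 2.3.3, scipy 1.17.1 and matplotlib 3.10.9.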

Additional observations from a re-analysis of the deposited data

How the results depend on the processing

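The log2 fold change of each of the 10 members kept its direction under every alternative that fitted the gene. It moved by less than the spread between libraries, taken as the SD of single libraries within the groups in log2 of CPM plus 0.1. That spread is not the error of a difference between group means. For MX1 the margin was narrow, with 1.312 in the main fit and 1.435 with library totals against a spread of 0.126. The median over the members, 2.77, was 2.37 to 2.97 when 1 library was left out. It was 2.43 with at least 10 counts in every library, which removes IFI44L. An adjusted p under 0.001 left 1130 genes higher and 1530 lower in place of 3429 and 3864, and 0 and 1 of the neighbours in place of 4 and 4. When 1 library was left out, 2381 to 4844 genes were called higher and 2833 to 5076 lower, the highest of these without GLCC1 siRNA replicate 2, and 0 to 4 neighbours were higher and 3 to 4 lower. Antiviral genes called lower numbered 1 to 2 with a library left out and 2 with a filter of 1 count in any library. Same-numbered libraries did not deviate together (correlations -0.13, -0.25 and -0.003 over 14875 genes). With 3 libraries per group, these correlations cannot show what the numbers stand for, such as a shared preparation or an siRNA sequence. With the replicate number as a block, 3009 genes were higher and 3513 lower, and 1 neighbour was higher. Among genes that did not pass the test, JAK1 turned to -0.000556 with a filter of 1 count and -0.0013 with the block, MVB12A to 0.0597 and TYK2 to 0.0939 with library totals, and TYK2 to 0.0103 with a filter of 10 counts. The cause was not tested. With 1 library left out, those that turned were DNM1L (-0.00736 to 0.14), DNM3 (-0.23 to 0.62), FAM3B (-0.99 to 0.48), FGR (-0.64 to 0.30), IFI27L2 (-0.12 to 0.24), IFNAR1 (-0.0686 to 0.18), IFNGR2 (-0.0406 to 0.0995), IRF3 (-0.0483 to 0.13), JAK1 (-0.0691 to 0.0601), MVB12A (-0.16 to 0.11), SOCS1 (-0.24 to 0.48), SOCS3 (-0.30 to 0.0312) and TYK2 (-0.10 to 0.10). At 12 control counts the fold of IFI44L is poorly bounded, and so are those of interferon genes with 0 to 25 counts.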
